A study of Danio rerio with 12 samples.

Results

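The effect of β-estradiol on the liver of adult female zebrafish (Danio rerio) was measured in 6 of the 12 RNA-seq libraries of the study. The labels give 3 libraries from wild-type females on DMSO, the solvent (female DMSO replicates 1 to 3), and 3 from wild-type females on estradiol (female estradiol replicates 1 to 3). Exposure was daily and lasted 6 weeks, starting when the fish were 3 months old, and every fish had a tank of its own so that feeding could be controlled. The other 6 libraries, 3 from males on DMSO and 3 from males on estradiol, entered the fit so that the spread between libraries was estimated over all 12, and they served as the comparison for the female effect. The labels do not tie each library to its own fish, so the spread behind the p-values is that of libraries and may be partly technical.

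Estradiol acts mainly through nuclear estrogen receptors, which bind DNA and change transcription, and also through membrane receptors that signal by kinases. In egg-laying vertebrates the liver is a major target: during egg formation it makes vitellogenin, the yolk precursor, which the ovary takes up from the blood. In fish the same organ secretes plasma proteins, handles lipids and sterols, and inactivates steroids by oxidation and conjugation.

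Of 14581 gene symbols, 9190 reached 1 FPKM (mapped fragments scaled to transcript length and to library size) in at least 3 of the 12 libraries and were tested on log2(FPKM + 1). Changes below are log2 differences on that scale, ± SE, with Benjamini-Hochberg adjusted p from limma over all 9190 genes, and a gene was called at an adjusted p under 0.05. In females 251 genes (2.73%) were called, of which 45 rose (0.49% of those tested) and 206 fell (2.24%). The smallest called change was 1.14 and the median size 2.51 on the log2 scale. The 3 estradiol libraries all lay above the 3 DMSO libraries for 9.98% of tested genes and all below for 18.8%. Counts within a gene list below are to be read beside these shares. Only 36 calls, 8 rises and 28 falls, held with each of the 12 libraries left out in turn. The count fell to 40 without female DMSO replicate 1 and rose to 704 without male estradiol replicate 2.

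The libraries differed in what else they held. Exocrine pancreas markers made up 1.82, 0.435 and 1.37% of summed FPKM in female DMSO replicates 1 to 3. In female estradiol replicates 1 to 3 they made up 0.0382, 0.161 and 0.0235%. No fit took that list as a covariate. Among females, Spearman correlations across tested genes were 0.856 to 0.909 within DMSO and 0.612 to 0.819 within estradiol, with female estradiol replicate 1 farthest from the rest. The mean level of 22 intestine markers was 6.34 and 6.54 in female DMSO replicates 1 and 2 and between 2.59 and 2.94 in the other 4 female libraries, on the log2(FPKM + 1) scale. The mean of 35 oocyte and ovary markers was 6.47 and 4.53 in female estradiol replicates 1 and 3 and 0.14 in replicate 2, against 1.72, 3.26 and 0.81 in the DMSO libraries. With the intestine mean as a covariate 10 genes were called. Of 71 calls picked by the rule for named genes, 8 remained in that fit. A further 2 fits left out the 2 DMSO libraries rich in intestine markers, or the 2 estradiol libraries rich in oocyte markers. Each leaves 1 library in a female group, so only sizes of change are given from them. The part of intestine, oocyte or pancreas tissue in the calls was not tested beyond these fits. Calls said below to hold in every leave-one-out fit need not have held in these 3 fits. In such bulk samples, fewer cells of a type and less RNA per cell cannot be told apart.

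**Figure D1:**
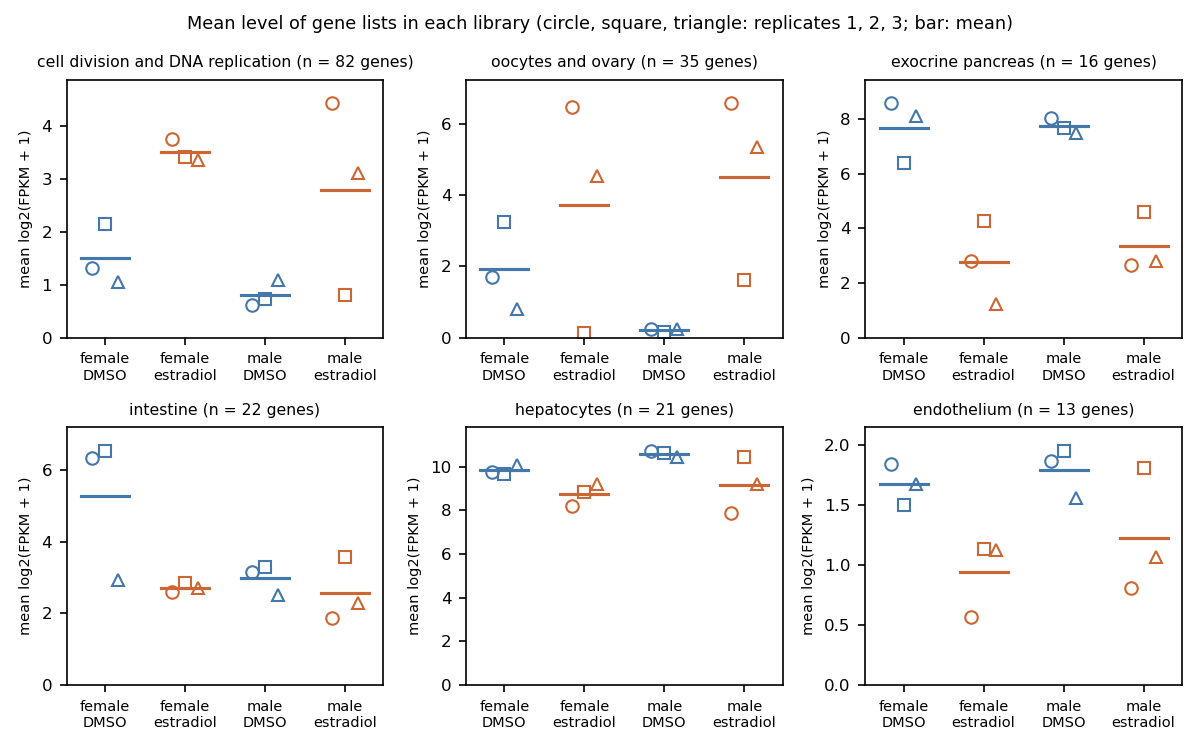
Mean log2(FPKM + 1) of 6 gene lists in each of the 12 libraries, by sex and treatment; symbols mark replicates 1 to 3 and bars the mean of 3. The cell division list was higher in all 3 female estradiol libraries than in any female DMSO library, while the oocyte list was near 0 in female estradiol replicate 2 and the intestine list was high in female DMSO replicates 1 and 2.

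Hepatocyte identity was checked first. All 21 tested hepatocyte markers were present, with mean levels of 9.66 to 10.09 under DMSO and of 8.20 to 9.21 under estradiol. Their median change was -1.06, 13 (61.9%) lay lower without overlap, beside 18.8% of all tested genes, and 2 fell. The median was -0.30 with the intestine covariate, -0.44 after quantile normalization and -0.54 with the oocyte covariate. One was hpx, hemopexin, the plasma carrier of haem, which measured 4192, 3930 and 4048 FPKM in DMSO and 12.5, 173 and 640 FPKM in estradiol (-5.15 ± 1.17, adjusted p = 0.0415 from limma). The other was hpda, an enzyme of tyrosine breakdown, which went from 831 to 1258 FPKM in DMSO to 104 to 264 FPKM in estradiol (-2.42 ± 0.51, adjusted p = 0.0319). The hpx call held only without female estradiol replicate 3 or male estradiol replicate 1 or 2, and the hpda call only without one of the male estradiol libraries. Adjusted p otherwise reached 0.144 for hpx and 0.12 for hpda. The most abundant marker, fabp10a, the liver fatty acid binding protein, averaged 39122 FPKM under DMSO and 12214 FPKM under estradiol (-1.68, adjusted p = 0.0942), and rbp4, the plasma retinol carrier, averaged 6978 and 7303 FPKM (-0.01, adjusted p = 0.997).

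All 8 tested estrogen and other steroid receptors had negative estimates. The gene esr1, which encodes estrogen receptor alpha, measured 88.5, 37.0 and 65.5 FPKM in female DMSO and 10.3, 13.3 and 11.9 FPKM in female estradiol. The groups did not overlap, but the change of -2.25 ± 0.60 missed the threshold (adjusted p = 0.0722). In males esr1 went the other way, from 0.785 to 1.35 FPKM in DMSO to 4.40, 36.4 and 7.35 FPKM in estradiol (2.54 ± 0.60, adjusted p = 0.0382). The female effect minus the male effect was -4.79 ± 0.85 (adjusted p = 0.0442), against 0.261% of all genes with a called difference. That call ended when any library other than female DMSO replicate 3 or male estradiol replicate 1 or 2 was left out, with adjusted p up to 0.161. The one receptor called was esrra, an estrogen-related receptor with no known steroid ligand, at 6.00, 5.46 and 15.2 FPKM in DMSO and 0.636, 0.614 and 2.03 FPKM in estradiol (-2.17 ± 0.50, adjusted p = 0.0435). It held only without male estradiol replicate 1 or 2 (adjusted p up to 0.143). The beta receptors esr2a and esr2b changed by -0.23 ± 0.44 and -1.32 ± 0.64, the androgen receptor ar by -1.61 ± 0.67 and the progesterone receptor pgr by -0.94 ± 0.50, all with overlapping groups and adjusted p of 0.216 or more.

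The classical estrogen targets could not be read. All 6 vitellogenin genes of the table (vtg1, vtg2, vtg4 to vtg6, and vtg7) were listed at exactly 0 in all 6 female libraries and in the 3 male estradiol libraries. In male DMSO vtg2 was listed at 78.4, 29.7 and 18.7 FPKM. Such a 0 can be a failed estimate, so no level is drawn from it. The same holds for tfa, transferrin, the plasma iron carrier: it was listed at 0 in all 3 female DMSO libraries and at 2076, 5762 and 7012 FPKM in female estradiol. In all, 51 tested genes were at 0 in a whole female group, 17 in DMSO alone, 23 in estradiol alone and 11 in both. Among the most abundant of them, ftr54 stood at 2.67, 2.85 and 11.9 FPKM and btf3l4 at 2.42, 4.68 and 3.57 FPKM in DMSO, and both were listed at 0 throughout estradiol. Both also passed the test by limma. The ftr54 call (adjusted p = 0.0436) held only without male estradiol replicate 1 or 2 (up to 0.126), and that of btf3l4 (adjusted p = 0.028) ended without any female library (up to 0.0953).

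Genes of cell division and DNA replication were higher in estradiol-treated females. Of 85 in the table, 82 were tested, all 82 had positive estimates between 0.63 and 3.62, and 65 (79.3%) lay higher without overlap, against 9.98% of all genes. Their median change was 2.02, against -0.08 for all genes, and 4 rose. Unadjusted p was under 0.05 for 59 of them (71.95%), against 19% of all genes. A member can pass the filter through the estradiol libraries alone, so every member was also counted: of 83 above 0 anywhere, all 83 were positive and 65 (78.3%) lay higher, against 8.33% of unfiltered genes. Among the tested members, 68 reached 1 FPKM in a female DMSO library. The median stayed between 1.49 and 2.73 over the other settings tried.

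The 4 called members serve DNA synthesis or the cell cycle engine. The clamp loader subunit rfc5 measured 2.64, 3.29 and 4.16 FPKM in DMSO and 16.2, 19.5 and 15.9 FPKM in estradiol (2.07 ± 0.45, adjusted p = 0.036). Another clamp loader subunit, rfc3, went from 3.09, 8.03 and 2.44 FPKM to 25.7, 18.7 and 13.1 FPKM (1.96 ± 0.47, adjusted p = 0.047). The groups did not overlap for either. The cyclin-dependent kinase subunit cks2 stood at 0.994, 1.12 and 0.162 FPKM in DMSO and 7.76, 8.72 and 5.4 FPKM in estradiol (2.26 ± 0.52, adjusted p = 0.0415). The DNA polymerase delta subunit pold2 was at or below 0.328 FPKM in DMSO and at 4.74, 4.55 and 2.44 FPKM in estradiol (1.99 ± 0.47, adjusted p = 0.047). All 4 calls held without male estradiol replicate 1 or 2, that of rfc3 also without female DMSO replicate 2 and that of rfc5 also without male DMSO replicate 1. Each ended without any other library, with adjusted p up to 0.148 for rfc5, 0.196 for rfc3, 0.135 for cks2 and 0.146 for pold2.

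Other members missed the threshold although their groups did not overlap. The ribonucleotide reductase subunit rrm2, which supplies deoxynucleotides, had the largest estimate of the list and measured 8.05, 19 and 2.45 FPKM in DMSO and 208, 68.0 and 79.4 FPKM in estradiol (3.62, adjusted p = 0.13). The mitotic kinase plk1 measured 1.05, 7.75 and 0.295 FPKM in DMSO and 48.5, 15 and 25.1 FPKM in estradiol (3.27, adjusted p = 0.182). The replication clamp pcna measured 15.2, 40.6 and 18.5 FPKM in DMSO and 88.6, 172 and 91.6 FPKM in estradiol (2.26, adjusted p = 0.184). Topoisomerase top2a measured 0.888, 2.76 and 0.846 FPKM in DMSO and 14.6, 22.1 and 9.64 FPKM in estradiol (2.73, adjusted p = 0.0941). For the mitotic cyclins ccnb2 (3.103, adjusted p = 0.309) and ccnb1 (2.82, adjusted p = 0.321) the groups overlapped. These genes were chosen after their values were seen.

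Oocyte markers differed between the same libraries and are given beside these genes. In female estradiol replicate 2, 26 of the 35 oocyte markers were at 0, among them the egg coat genes zp3, zp3a.2 and zp2l1. In that library 74 of the 82 cell division genes (90.2%) were above all 3 DMSO libraries, against 21.0% of all genes. Its list mean was 3.41, beside 3.75 and 3.36 in the other estradiol libraries and 1.31, 2.14 and 1.06 in DMSO. Without the 2 oocyte-rich libraries the list median was 2.11, with 79 of 82 positive. That fit keeps replicate 2 as the only female estradiol library, so it draws on the same library as the values above. The list median was 2.02 in the main fit, 1.54 with the oocyte covariate and 1.49 with the intestine covariate. The part of oocytes in the higher levels of these genes was not tested. The germ line cyclin ccna1 was at 277 and 58.5 FPKM in female estradiol replicates 1 and 3 and at 0 in replicate 2, and birc5b was at 380, 0 and 44.1 FPKM. In males the list mean was 0.62, 0.73 and 1.08 in DMSO and 4.42, 0.81 and 3.11 in estradiol, where the low library, replicate 2, was also the lowest of its group in oocyte markers.

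**Figure D2:**
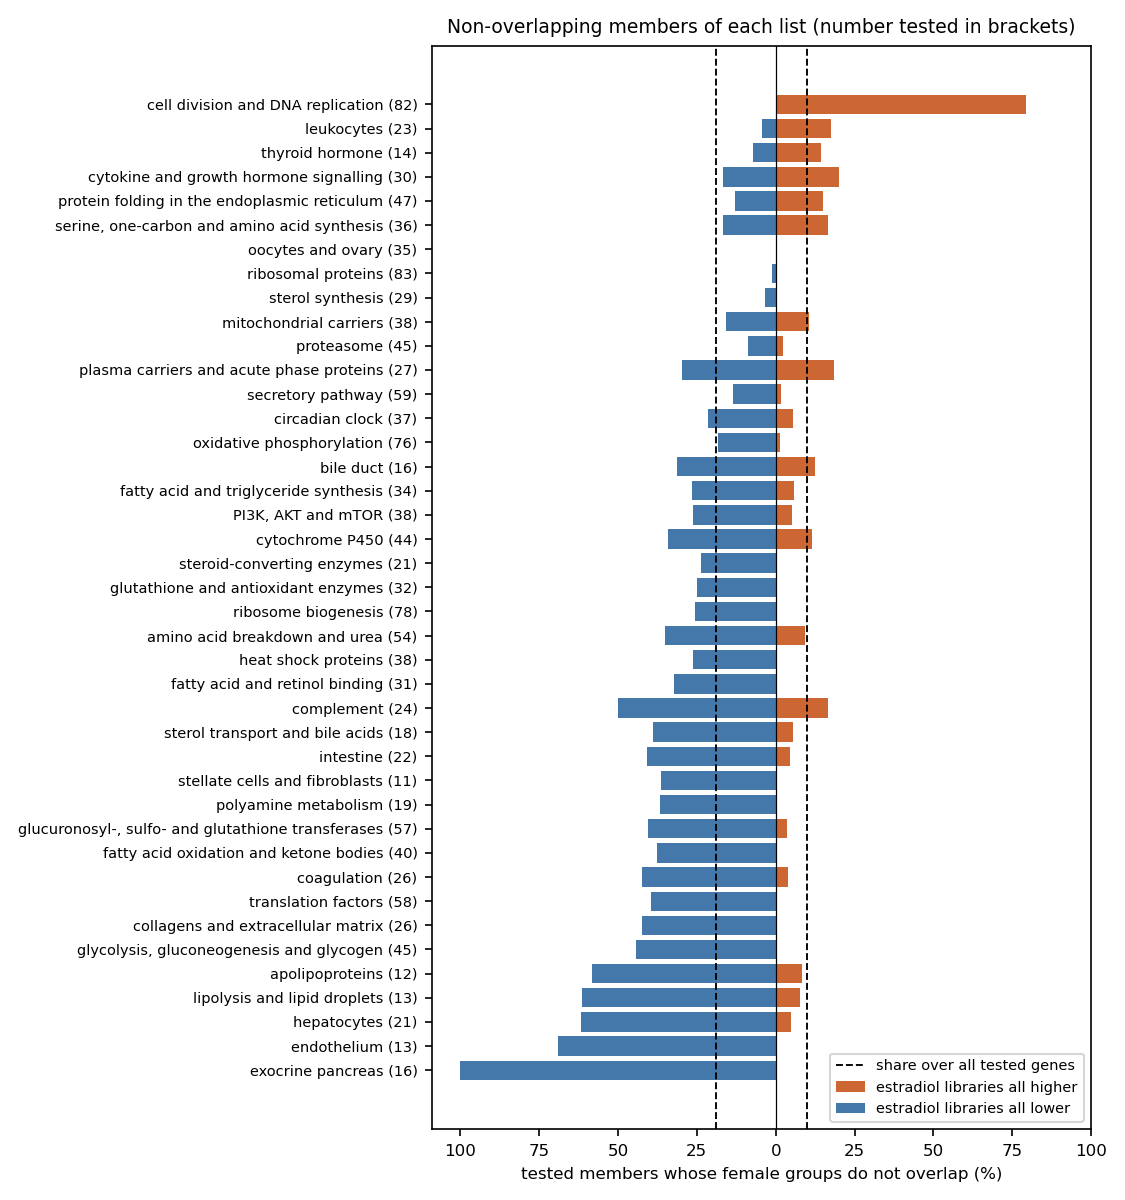
Share of tested members of each of 41 lists with at least 10 tested genes whose 3 female estradiol libraries all lay above (right) or all below (left) the 3 female DMSO libraries; dashed lines give the shares over all tested genes, 9.98% and 18.8%. The cell division list stands at 79.3% on the right and the exocrine pancreas list at 100% on the left.

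The largest rise that held in every leave-one-out fit, among genes not at 0 in a whole group, was in cytokine signalling. The gene cish, a SOCS family inhibitor of cytokine and growth hormone receptors that act through STAT5, measured 1.28, 1.87 and 0.366 FPKM in DMSO and 51.3, 30.9 and 48.6 FPKM in estradiol (4.39 ± 0.55, adjusted p = 0.0036). Every estradiol library was far above every DMSO library. It was the only one of 30 tested cytokine and growth hormone genes to pass, and the list median was -0.13. Males showed the same direction for cish (2.91, adjusted p = 0.0131).

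Of the other rises that held in every leave-one-out fit, fhl1b, a LIM domain protein, went from 1.2, 1.74 and 0.505 FPKM to 42.6, 21.5 and 22.5 FPKM (3.77 ± 0.41, adjusted p = 0.00148). In males it stayed at or below 1.21 FPKM in all 6 libraries. The metalloproteinase mmp23bb went from 1.65, 0.715 and 0.328 FPKM to 23.4, 13.3 and 10.4 FPKM (3.12 ± 0.42, adjusted p = 0.00446). The mitochondrial pyrimidine nucleotide carrier slc25a33 went from 21.1, 8.97 and 7.27 FPKM to 138, 90.2 and 61.4 FPKM (2.92 ± 0.48, adjusted p = 0.0106), the only call among 38 mitochondrial carriers. The stress granule protein g3bp2 went from 1.04, 1.02 and 0.771 FPKM to 13.1, 9.55 and 9.23 FPKM (2.57 ± 0.36, adjusted p = 0.00564). No group of these 4 genes overlapped.

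**Figure D3:**
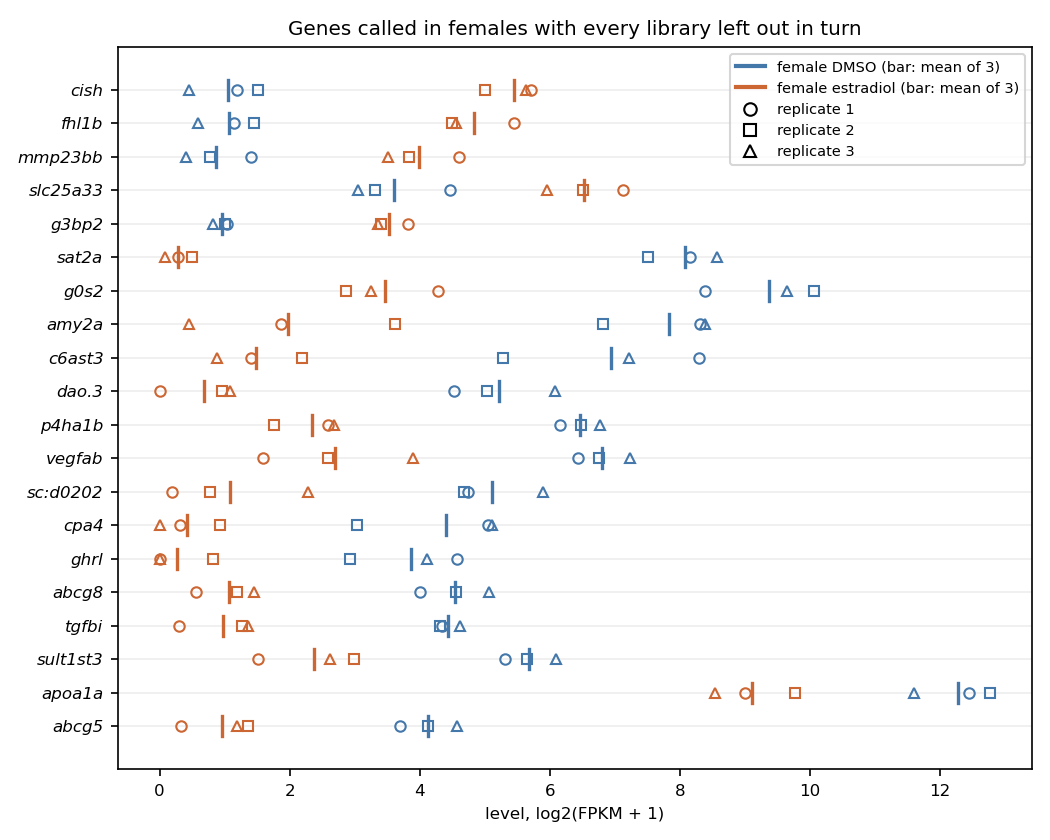
Levels, as log2(FPKM + 1), of 5 rises and 15 falls in the 3 female DMSO and 3 female estradiol libraries. Bars are means of 3. The genes are the largest that held in every leave-one-out fit by the rule for named genes, which leaves out clone names. For every gene drawn the groups are apart, with sat2a and g0s2 showing the largest falls.

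Calls among secreted proteins of the liver went both ways. Of 27 tested plasma carriers and acute phase proteins, lect2l rose and hpx fell. A further call, tfa, is set apart (above), and no rise is drawn from it. The leukocyte-attracting factor lect2l measured 1.25, 2.39 and 3.1 FPKM in DMSO and 231, 42.5 and 68.0 FPKM in estradiol (4.81 ± 0.97, adjusted p = 0.0264). It did not overlap, and its call ended without female DMSO replicate 1 or 2 or female estradiol replicate 1 or 3 (adjusted p up to 0.107). Among 12 apolipoproteins 2 fell, beside 2.24% of all tested genes, with a list median of -1.55. That median was -0.53 without the oocyte-rich estradiol libraries, -0.67 and -0.96 with the intestine and oocyte covariates and -0.70 without female estradiol replicate 1. The high-density lipoprotein protein apoa1a went from 5561, 7014 and 3111 FPKM to 511, 874 and 370 FPKM (-3.17 ± 0.47, adjusted p = 0.00599), held in every leave-one-out fit. Its relative apoa4a went from 58.3, 120 and 45.3 FPKM to 0.147, 0.178 and 0.155 FPKM (-5.90 ± 1.34, adjusted p = 0.0415), a call that ended without any female library or male DMSO replicate 1 (adjusted p up to 0.136). The more abundant apoa1b and apoa2, with means of 12720 and 19600 FPKM in female DMSO, were not called (adjusted p = 0.343 and 0.371). No coagulation gene (26 tested, 11 lower without overlap, median -0.76) and no complement gene (24 tested, 12 lower and 4 higher, median -0.82) passed the test by limma. The shares lower were 42.3% and 50%, beside 18.8% of all tested genes. With the intestine and oocyte covariates the coagulation median was -0.12 and -0.14 and the complement median -0.51 and -0.47. The fibrinogen chain fgb, for example, changed by -1.06 ± 0.88 (adjusted p = 0.526).

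Genes of lipid droplets and sterol export were among the falls. Of 13 genes of lipolysis and lipid droplets 5 fell and 8 (61.5%) lay lower without overlap, beside 2.24% and 18.8% of all tested genes. The list median was -1.43. The lipolysis inhibitor g0s2, which blocks adipose triglyceride lipase in mammals, fell from 335, 1074 and 799 FPKM to 18.3, 6.32 and 8.56 FPKM (-5.90 ± 0.66, adjusted p = 0.00168). Every estradiol library was below 20 FPKM. The carboxylesterase ces3 fell from 282, 210 and 269 FPKM to 5.71, 25 and 35.7 FPKM (-3.77 ± 0.59, adjusted p = 0.00803). The lipoprotein lipase inhibitor angptl4 fell from 25, 75.4 and 60.4 FPKM to 0, 0.552 and 1.29 FPKM (-5.02 ± 1.06, adjusted p = 0.0319). The lipase lipf fell from 47.9 to 49.8 FPKM to 12.5 to 14.8 FPKM (-1.79 ± 0.41, adjusted p = 0.0415). The fifth, cel.1, a bile salt lipase, is also an exocrine pancreas marker. The g0s2 call held in every leave-one-out fit, those of ces3 and cel.1 ended without female DMSO replicate 1 (adjusted p = 0.0505 for both), that of angptl4 ended without any female library (up to 0.102), and that of lipf held only without male estradiol replicate 1 or 2 (up to 0.148).

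The sterol transporters abcg5 and abcg8, which together export cholesterol and plant sterols into bile, fell together. Values of abcg5 were 11.9, 16.5 and 22.7 FPKM in DMSO and 0.252, 1.58 and 1.29 FPKM in estradiol (-3.17 ± 0.45, adjusted p = 0.00598). Values of abcg8 were 15, 22.4 and 32.5 FPKM in DMSO and 0.468, 1.28 and 1.72 FPKM in estradiol (-3.48 ± 0.49, adjusted p = 0.00564). Both held in every leave-one-out fit and were the only calls among 18 genes of sterol transport and bile acids. No sterol synthesis gene of 29 passed the test by limma. Their median was -0.50, but it was 0.89 without the 2 oocyte-rich estradiol libraries. The rate-limiting reductase hmgcra changed by -0.72 ± 0.77 and the synthase hmgcs1 by 0.13 ± 0.89. No gene of fatty acid and triglyceride synthesis passed either (34 tested, 26.5% lower, beside 18.8% of all tested genes). The fatty acid oxidation regulator pparaa fell from 26.7, 20.6 and 15.2 FPKM to 2.49, 2.18 and 3.87 FPKM (-2.50 ± 0.44, adjusted p = 0.0141). It was the single call among 40 genes of that pathway, of which 15 (37.5%) lay lower. A single fall among 40 is close to the 2.24% of all tested genes that fell. The pparaa call ended without female DMSO replicate 1 or 2 or female estradiol replicate 2 (adjusted p up to 0.0766).

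Of 31 fatty acid and retinol binding genes 3 fell, 10 (32.3%) lay lower without overlap, none lay higher and 8 had positive estimates, beside falls in 2.24% and lower libraries in 18.8% of all tested genes. The median was -0.72, and -0.12 with the intestine covariate. That covariate is the mean of the intestine markers, which include fabp2 and rbp2a, so the 2 medians are not independent of these genes. Among the 22 intestine markers 2 fell, fabp2 and rbp2a, and 1 rose, lgals2a, with 9 (40.9%) lower and 1 higher without overlap. Their median was -2.56, but -0.04 without the intestine-rich DMSO libraries. Those libraries were picked for their high level of this same list, so that shift follows from the choice. The enterocyte protein fabp2 measured 612, 1122 and 47.3 FPKM in DMSO and 0.192, 2.82 and 0.31 FPKM in estradiol (-7.47 ± 1.21, adjusted p = 0.00949), highest in the same 2 DMSO libraries that were high for other intestine markers. Its call ended without female DMSO replicate 1 (adjusted p = 0.0559). The retinol binding proteins rbp2a (1415, 3380 and 1648 FPKM against 43.6, 195 and 181 FPKM) and rbp2b (218, 150 and 216 FPKM against 5.94, 34.4 and 35.1 FPKM) fell by 4.09 ± 0.81 and 3.22 ± 0.70 (adjusted p = 0.0242 and 0.0355). Within DMSO, rbp2a was lowest in replicate 1 and rbp2b in replicate 2. The part of intestine tissue in either fall was not tested beyond the fits above. The rbp2a call ended without female DMSO replicate 1 or 2 or female estradiol replicate 1 (up to 0.0892), and the rbp2b call held only without female estradiol replicate 3 or a male estradiol library (up to 0.137).

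Exocrine pancreas genes were far lower. All 16 tested members lay lower without overlap and 15 fell, beside 18.8% and 2.24% of all tested genes. Their median was -5.55, and -3.43 without the oocyte-rich estradiol libraries. Of 18 members above 0 anywhere, 16 (88.9%) lay lower, against 14.6% of unfiltered genes, with 17 estimates negative and 1 positive. In zebrafish pancreas tissue lies along the gut near the liver. Less pancreas tissue in the estradiol samples and lower expression cannot be told apart here, and neither was tested. Amylase amy2a measured 316, 112 and 335 FPKM in DMSO and 2.66, 11.2 and 0.364 FPKM in estradiol (-5.86 ± 0.76, adjusted p = 0.00389). Carboxypeptidase cpa4 measured 32.1, 7.19 and 33.5 FPKM in DMSO and 0.244, 0.904 and 0 FPKM in estradiol (-3.98 ± 0.55, adjusted p = 0.00494). Elastase ela3l fell by 6.09 and chymotrypsin ctrl by 5.70 (adjusted p = 0.00949 and 0.0141). Trypsin, try, missed the threshold (-2.75, adjusted p = 0.0535). The calls of ela3l and ctrl ended without female DMSO replicate 1 (0.0559 and 0.0736), and those of amy2a and cpa4 held in every leave-one-out fit. The list mean was 8.57, 6.38 and 8.11 in DMSO and 2.80, 4.28 and 1.23 in estradiol. Males on DMSO held these transcripts too, and all 16 fell in males.

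Other stable falls included c6ast3, an astacin family protease, from 314, 38.0 and 149 FPKM to 1.65, 3.54 and 0.837 FPKM (-5.45 ± 0.70, adjusted p = 0.00375), and ghrl, the gut hormone ghrelin, from 22.8, 6.58 and 16.3 FPKM to 0, 0.769 and 0 FPKM (-3.60 ± 0.48, adjusted p = 0.00446). In both, female DMSO replicate 2 was the lowest of its group, as in the pancreas list. The D-amino acid oxidase dao.3 was highest in female DMSO replicate 3, at 22.1, 31.9 and 66.5 FPKM in DMSO against 0, 0.949 and 1.12 FPKM in estradiol (-4.53 ± 0.57, adjusted p = 0.0036). The part of pancreas tissue in c6ast3, ghrl and dao.3 was not tested.

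Among the named genes, polyamine metabolism held the largest fall of a gene with signal in both groups. The acetyltransferase sat2a, of the spermidine/spermine acetyltransferase family, went from 285, 182 and 380 FPKM to 0.215, 0.406 and 0.0624 FPKM (-7.80 ± 0.46, adjusted p = 4.96e-06). No library came near the other group. It stayed called in every alternative tried. Ornithine decarboxylase odc1, which makes the first polyamine, measured 302, 448 and 651 FPKM in DMSO and 19.4, 11.9 and 38.3 FPKM in estradiol, without overlap, but did not pass (-4.35 ± 1.41, adjusted p = 0.116). Its inhibitor antizyme, oaz1a, fell from 309, 408 and 326 FPKM to 130, 78.0 and 107 FPKM (-1.74 ± 0.42, adjusted p = 0.0499), held only without male estradiol replicate 1 or 2 (up to 0.158). The remaining 16 tested members were not called. Spermidine synthase srm changed by -1.06 ± 0.45 and the S-adenosylmethionine decarboxylase amd1 by -0.78 ± 0.49. The list median was -0.78, with 7 of 19 members (36.8%) lower without overlap, beside 18.8% of all tested genes.

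Drug and steroid conjugation fell in part. Of 57 glucuronosyl-, sulfo- and glutathione transferases 7 fell and 23 (40.4%) lay lower, beside 2.24% and 18.8% of all tested genes. None rose. The falls included 3 cytosolic sulfotransferases: sult1st3 fell from 38.5, 49.3 and 67.6 FPKM to 1.86, 6.92 and 5.15 FPKM (-3.31 ± 0.51, adjusted p = 0.00738, held in every leave-one-out fit), sult1st1 from 87.0, 88.0 and 99.7 FPKM to 0.559, 5.84 and 8.0 FPKM (-4.33 ± 0.85, adjusted p = 0.0233) and sult1st2 from 13.8, 32.5 and 3.57 FPKM to 0.141, 0.96 and 0.513 FPKM (-3.13 ± 0.68, adjusted p = 0.0369). The call of sult1st1 ended without any female DMSO library or female estradiol replicate 1 (up to 0.0862), and that of sult1st2 held only without female DMSO replicate 3 or male estradiol replicate 1 or 2 (up to 0.137). Sulfotransferases without a call ranged from -3.55 for sult3st3 (adjusted p = 0.074) to 1.83 for sult2st3 (adjusted p = 0.193). The glucuronosyltransferase ugt1a5 changed by -2.88 ± 0.52 (adjusted p = 0.0157) and the glutathione transferase gstal by -2.80 ± 0.51 (adjusted p = 0.0161). Both ended without female DMSO replicate 1 (0.0736 and 0.0792), and ugt1a5 also without female estradiol replicate 2. Near-identical copies of such families can share reads, so these values are uncertain between copies.

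Among 44 cytochrome P450 genes 5 fell, beside 2.24% of all tested genes, and none rose. The median was -0.60, and -0.12 with the intestine covariate. All 5 belong to family 2, which oxidises drugs, fatty acids and steroids. The largest fall, cyp2x7, was from 9.91, 17.0 and 15.7 FPKM to 0.345, 1.84 and 2.21 FPKM (-2.69 ± 0.45, adjusted p = 0.0121), lost without female DMSO replicate 2 (0.0551). The most abundant, cyp2ad2, went from 485, 348 and 483 FPKM to 66.2, 73.8 and 105 FPKM (-2.42 ± 0.47, adjusted p = 0.0233), lost without any female DMSO library or female estradiol replicate 1 or 2 (up to 0.0997). The others were cyp2k19 (-2.21 ± 0.42), cyp2p7 (-2.09 ± 0.45) and cyp2k22. The last is given below with cyp2k6, the other P450 gene whose effect differed between the sexes. The call of cyp2k19 ended without female DMSO replicate 1 or 3 or female estradiol replicate 2 (up to 0.0743), and that of cyp2p7 held only without female DMSO replicate 3 or a male estradiol library (up to 0.138). No steroid-converting enzyme of 21 passed by limma. The nearest, the steroid reductase srd5a2a, measured 203, 184 and 276 FPKM in DMSO and 43.5, 46.6 and 49.6 FPKM in estradiol (-2.20 ± 0.54, adjusted p = 0.0521).

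Of 45 genes of glycolysis, gluconeogenesis and glycogen 20 (44.4%) lay lower without overlap, beside 18.8% of all tested genes, none lay higher, and 2 fell. Lactate dehydrogenase ldha went from 59.203, 130 and 55.8 FPKM to 4.56, 3.28 and 6.35 FPKM (-3.77 ± 0.80, adjusted p = 0.0326), and the mutase pgam1a from 260, 273 and 319 FPKM to 54.9, 40.7 and 36.5 FPKM (-2.67 ± 0.51, adjusted p = 0.021). The ldha call held only without one of the male estradiol libraries (up to 0.108), and that of pgam1a ended without any female library other than estradiol replicate 1 (up to 0.0792). Of 54 genes of amino acid breakdown and urea, 19 (35.2%) lay lower and 5 (9.26%) higher without overlap, beside 18.8% and 9.98% of all tested genes. In that list 2 fell, beside 2.24% of all tested genes. They were hpda and the glycine cleavage enzyme gldc (-1.96 ± 0.36, adjusted p = 0.0187, lost without any female DMSO library or female estradiol replicate 2, up to 0.0862). The cystathionine synthase cbsa fell by 1.81 ± 0.37 (adjusted p = 0.03), held only without female estradiol replicate 2 or a male estradiol library (up to 0.0999). The deiodinase dio1, which activates thyroid hormone, fell from 89.3, 110 and 77.4 FPKM to 1.52, 10.9 and 12.2 FPKM (-3.65 ± 0.69, adjusted p = 0.02), and ended without female DMSO replicate 1 or 2 (up to 0.0792).

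Growth signalling and protein synthesis showed no list-wide rise. The pathway of PI3K, AKT and mTOR signalling links growth factors to translation. Of its 38 genes, 10 (26.3%) lay lower and 2 (5.26%) higher without overlap, beside 18.8% and 9.98% of all genes. In that list 1 gene fell, beside 2.24% of all genes. This was eif4ebp3, a repressor of cap-dependent translation, at 1493, 791 and 1220 FPKM in DMSO and 139, 110 and 134 FPKM in estradiol (-3.14 ± 0.56, adjusted p = 0.0148), lost without female DMSO replicate 1 (0.0792) or female estradiol replicate 2 (0.0535). Of 58 translation factors 23 (39.7%) lay lower, beside 18.8% of all tested genes, none lay higher, and 3 fell. These were eef2k, the kinase that restrains elongation (-3.21 ± 0.64), the helicase eif4a2 (-1.67 ± 0.33) and its partner eif4bb (-1.75 ± 0.40), with adjusted p of 0.0251, 0.0253 and 0.0415. The call of eef2k ended without any female library (up to 0.102), that of eif4a2 without any female library other than estradiol replicate 1 (up to 0.0909), and that of eif4bb held only without female estradiol replicate 2 or male estradiol replicate 1 or 2 (up to 0.169). Of 78 ribosome biogenesis genes 1 fell, the RNA methylase fibrillarin, fbl (-1.53 ± 0.37, adjusted p = 0.0483), held only without female estradiol replicate 1 or male estradiol replicate 1 or 2 (up to 0.173). That is a smaller share than the 2.24% of all tested genes that fell. Of the 78, however, 20 (25.6%) lay lower without overlap, beside 18.8% of all tested genes, and none lay higher. The list median was -0.47. None of 83 ribosomal protein genes, 76 oxidative phosphorylation genes or 45 proteasome genes passed by limma. The first 2 medians, -0.31 and -0.27, were 0.02 and 0.09 after quantile normalization, so no direction is given for them.

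Of 38 heat shock proteins 4 fell and 10 (26.3%) lay lower without overlap, beside 2.24% and 18.8% of all tested genes. The mitochondrial chaperone hspa9 went from 130, 116 and 163 FPKM to 25.5, 35.5 and 20.8 FPKM (-2.30 ± 0.38, adjusted p = 0.0101), lost without female DMSO replicate 1 (0.0553). The others were hspa4a (-2.20 ± 0.45, adjusted p = 0.0305), hsp70l and hsp90aa1.2, the last 2 at or below 3.00 FPKM in every female library. The hspa4a call ended without any female library other than estradiol replicate 1 (up to 0.122), and those of hsp70l and hsp90aa1.2 held only without male estradiol replicate 1 or 2 (up to 0.144 and 0.143).

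Of 26 collagen and extracellular matrix genes 2 fell, tgfbi and loxl2a, and 11 (42.3%) lay lower without overlap, beside 2.24% and 18.8% of all tested genes. Counting every member above 0 anywhere, 13 of 47 (27.7%) lay lower, against 14.6% of unfiltered genes. The list median was -0.60, and -2.06 with a filter of 5 FPKM. The secreted matrix protein tgfbi went from 19.4, 18.9 and 23.7 FPKM to 0.229, 1.41 and 1.58 FPKM (-3.45 ± 0.36, adjusted p = 0.00124). Outside that list, the collagen prolyl hydroxylase p4ha1b went from 70.4, 88.1 and 108 FPKM to 5.04, 2.38 and 5.42 FPKM (-4.12 ± 0.61, adjusted p = 0.00599). The angiogenic growth factor vegfab went from 85.0, 107 and 149 FPKM to 2.0, 5.04 and 13.9 FPKM (-4.11 ± 0.60, adjusted p = 0.00599). All 3 held in every leave-one-out fit, and no groups overlapped. The collagen crosslinking enzyme loxl2a also fell (-3.52 ± 0.74, adjusted p = 0.0319), lost without any female library or male DMSO replicate 2 (up to 0.0945). Of 13 endothelial markers 9 (69.2%) lay lower without overlap, beside 18.8% of all tested genes. All 13 reached 1 FPKM in a female DMSO library and 7 in a female estradiol library. Counting every member above 0 anywhere, 9 of 17 (52.9%) lay lower, against 14.6% of unfiltered genes. No endothelial marker passed the test by limma. The nearest was the VEGF receptor flt1, at 10.16, 6.51 and 9.73 FPKM in DMSO and 0.0332, 1.1 and 1.82 FPKM in estradiol (-2.40 ± 0.60, adjusted p = 0.0574). The endothelial mean was 1.84, 1.5 and 1.68 in DMSO and 0.56, 1.13 and 1.12 in estradiol, and its part in the fall of vegfab and tgfbi was not tested. In red blood cell markers 2 of 6 tested fell, beside 2.24% of all tested genes: tspo, a mitochondrial membrane protein (-2.06 ± 0.32, adjusted p = 0.00803, lost without female DMSO replicate 1 at 0.0555), and nt5c2l1 (-2.20 ± 0.51, adjusted p = 0.0415, held only without female estradiol replicate 2 or a male estradiol library, up to 0.164). Over all 15 members above 0, 2 (13.3%) lay lower without overlap, against 14.6% of unfiltered genes, so no fall of the list is drawn. The median of these 15 was -0.24.

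The female effect was set against that in males, who shared no library with the females. In males 348 genes (3.79%) were called. Both sexes called 95 genes, 37.8% of the female and 27.3% of the male calls, and all 95 went the same way, 4 up and 91 down. The difference between the effects was called for 24 genes (0.261%), 8 of which were at 0 in a whole group, and 987 (10.7%) had an unadjusted p under 0.05. Of the 251 female calls 3 had a called difference: fhl1b, lgals2a and cyp2k22.

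The gene fhl1b changed more in females than in males (difference 3.79 ± 0.57, adjusted p = 0.017), a call that ended without female DMSO replicate 1 (0.0594), male DMSO replicate 2 (0.0705) or male estradiol replicate 3 (0.0729). The galectin lgals2a, a sugar-binding protein, measured 4.21, 2.64 and 3.35 FPKM in female DMSO and 24.1, 10.9 and 13.3 FPKM in female estradiol (1.90 ± 0.37, adjusted p = 0.0219, lost without any female DMSO library, up to 0.0826). In males it stood at 6.22, 5.93 and 4.16 FPKM on DMSO and 1.45, 2.76 and 1.62 FPKM on estradiol. The difference was 3.04 ± 0.52 (adjusted p = 0.0393), held only without 1 of female DMSO replicate 3, female estradiol replicates 1 and 2 and male estradiol replicate 2 (up to 0.136). The P450 gene cyp2k22 measured 890, 891 and 546 FPKM in male DMSO but 12.3, 7.70 and 0.957 FPKM in female DMSO, and was at or below 0.141 FPKM in every estradiol library of either sex. It fell in females by 2.52 ± 0.57 (adjusted p = 0.0415, held only without female DMSO replicate 3 or male estradiol replicate 1 or 2, up to 0.171) and in males by 9.44 ± 0.57, and the difference of 6.92 ± 0.81 held in every leave-one-out fit (adjusted p = 0.0025). From the female DMSO level of cyp2k22 a fall of the male size was not possible. Its difference therefore cannot be told apart from that in starting level. Its relative cyp2k6 went the opposite way between the sexes. It measured 60.0, 71.2 and 24.97 FPKM in female DMSO and 8.68, 12.1 and 14.8 FPKM in female estradiol (-1.95 ± 0.58, adjusted p = 0.0963, without overlap). In males it was at or below 0.143 FPKM on DMSO and at 4.31, 7.69 and 27.8 FPKM on estradiol (3.34 ± 0.58, adjusted p = 0.00748). The difference of -5.28 ± 0.82 (adjusted p = 0.0189) ended without any male DMSO library, female DMSO replicate 1 or 2 or female estradiol replicate 3 (up to 0.0772).

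Among further called differences the female change itself did not pass. The steroid dehydrogenase hsd17b3 was at or below 0.24 FPKM in all 6 female libraries and at 117, 51.8 and 36.6 FPKM in male DMSO against 0.323 FPKM or less in male estradiol. The malic enzyme me1 was between 0.681 and 3.71 FPKM in females and fell in males from 84.0, 144 and 34.3 FPKM to 2.66 FPKM or less. At such female levels a fall of the male size was not possible for hsd17b3 or me1. Their differences cannot be told apart from those in starting level. The carrier slc25a48 measured 53.9, 13.2 and 61.2 FPKM in female DMSO and 77.7, 110 and 167 FPKM in female estradiol (1.64 ± 0.64, adjusted p = 0.185), against 319, 403 and 168 FPKM in male DMSO and 4.22, 16.5 and 11.6 FPKM in male estradiol. The protease nots was between 1187 and 3750 FPKM in all 6 female libraries, and in males it rose from 8.68 FPKM or less to 718 FPKM or more. For all 4 the differences held in every leave-one-out fit. The phosphatase ppm1la measured 44.0, 28.7 and 63.5 FPKM in female DMSO and 24.5, 11.9 and 8.34 FPKM in female estradiol (-1.60 ± 0.45, adjusted p = 0.0813), and rose in males from 2.18 FPKM or less to 11.1 FPKM or more. Its difference of -4.27 ± 0.63 (adjusted p = 0.0139) ended without female DMSO replicate 1, male DMSO replicate 2 or male estradiol replicate 3 (up to 0.0699). The genes apoa2, pmepa1 and apoa1b, with the 3 smallest p for the difference, were listed at 0 in all 3 male DMSO libraries, so no size is given. Their female changes were -1.004, -0.28 and -1.36, with adjusted p of 0.371, 0.833 and 0.343.

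**Figure D4:**
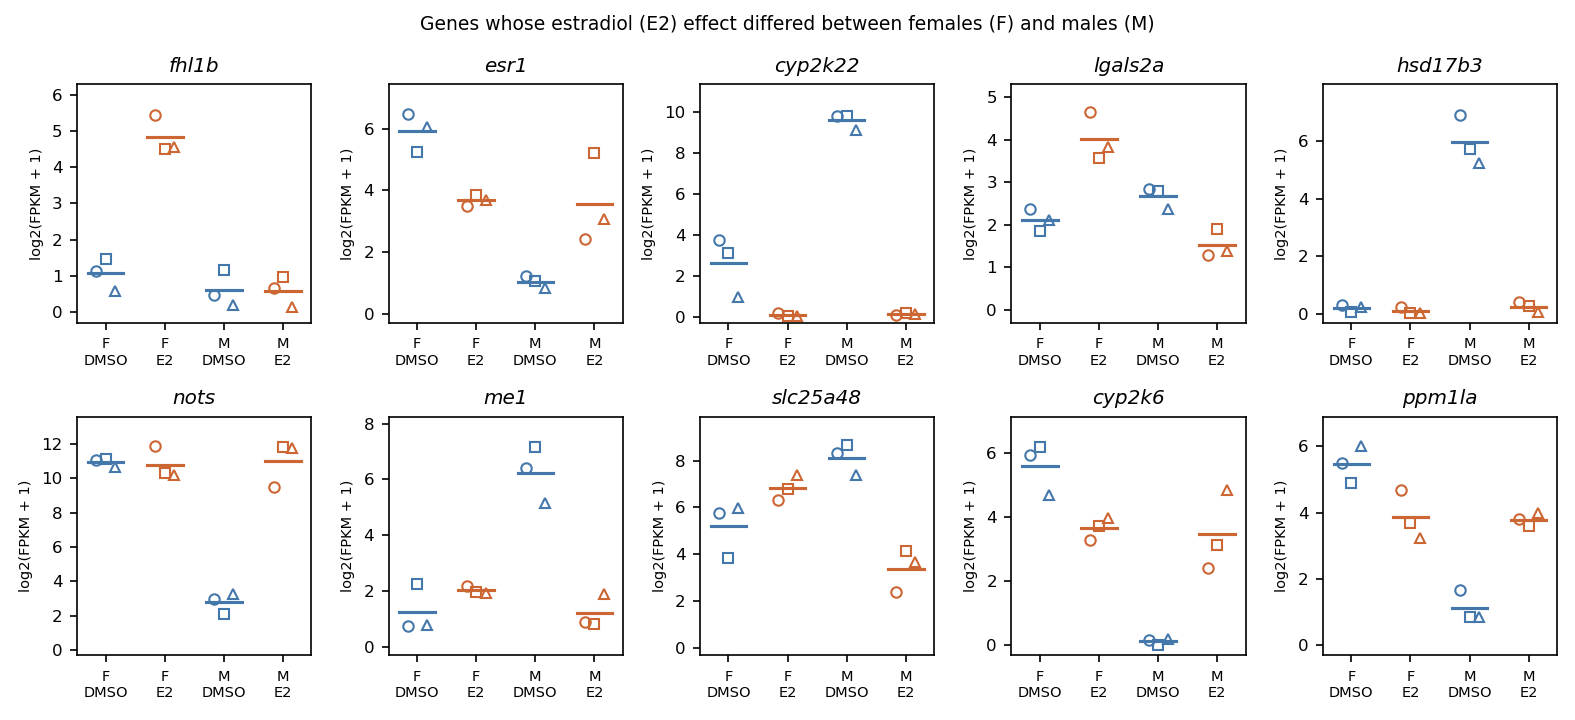
Levels, as log2(FPKM + 1), of 10 of the 16 genes with a called difference and no group at 0, between the female (F) and male (M) effect of estradiol (E2), in all 12 libraries; bars are means of 3. Female estradiol libraries are above female DMSO for fhl1b and lgals2a and below for esr1, cyp2k6 and ppm1la, which are higher with estradiol in males; cyp2k22, hsd17b3 and me1 are highest in male DMSO.

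**Figure D5:**
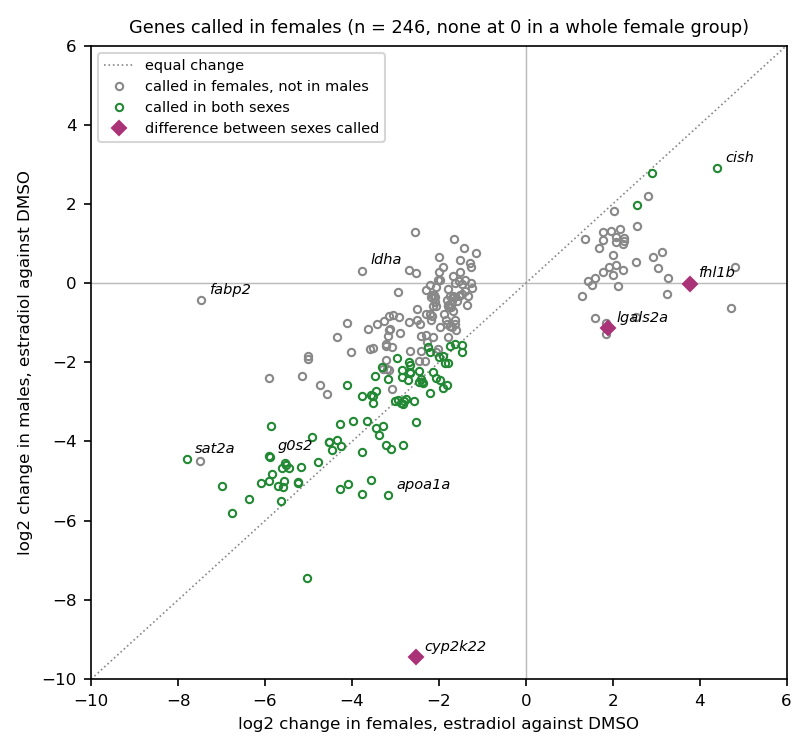
Log2 change with estradiol in females (horizontal) against males (vertical) for the 246 genes called in females and not at 0 in a whole female group; the dotted line marks equal change. Of 204 female falls 183 have a negative estimate in males, and 94 genes are called in both sexes.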

How the data were processed

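Expression was deposited as 1 FPKM value per gene symbol and library. The unit is not named in the header of the authors' table and was taken from Cufflinks and the range of values. Tools named in the submitters' processing notes are cutadapt, TopHat2 2.0.11 and Cufflinks 2.2.1, with build danRer7, and no annotation is stated in the sources used here. The values are not counts, whole reads could not be recovered from them (at most 2.865% of low genes shared a bin 0.01 wide on the log2 scale) and the depth is unknown. Sums of FPKM were 906620, 791670 and 883520 in female DMSO replicates 1 to 3. They were 1217100, 485550 and 508600 in female estradiol replicates 1 to 3. Shares of genes without overlap were taken on FPKM with no further scaling.

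Genes that reached 1 FPKM in 3 or more of the 12 libraries were tested on log2(FPKM + 1) with limma 3.58.1 (R 4.3.3), with group means for 4 groups and an intensity trend. The fit was tested on simulated data with changes of 1, 2, 3 and 4 log2 put into the female estradiol libraries. It called 3.2%, 41.6%, 71.2% and 86.4% of them, and 4.1% of calls in the simulated data were false. The noise was drawn independently for each library, with the same spread for a gene in every group. Changes were put only into better expressed genes. In the real data the estradiol libraries varied more than the DMSO libraries, so these rates need not hold there. Even in the simulation many changes of 1 or 2 log2 were missed, so a gene without a call can have changed by that much. Values from female DMSO and estradiol libraries with the same number did not deviate together (r of -0.087, -0.433 and 0.029). Libraries with different numbers gave r of -0.282 to 0.361, so such values cannot exclude a shared batch. No pairing was used in the main fit. Named genes were the 15 largest rises and 15 largest falls among calls that held in every leave-one-out fit, with no overlap and a mean of at least 5 FPKM (5 rises qualified), up to 5 called members of each of 45 lists, all tested receptors, vitellogenins and polyamine genes, and the genes with the 8 smallest p for the difference between sexes that were not at 0 in a whole female group (3 of them are at 0 in male DMSO). The genes fabp10a, rbp4, ela3l, ctrl, try, rrm2, plk1, pcna, top2a, ccnb1, ccnb2, ccna1, birc5b, sult2st3, sult3st3, cyp2k6 and ppm1la, and those of the 2 added lists, were chosen after their values were seen. Genes at 0 in a whole female group were set apart. Genes with clone names, 52 of those called in females, were left out of the largest rises and falls and of the smallest p. The members and lists were chosen with earlier results of these data known.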

Additional observations from a re-analysis of the deposited data

Results flagged for a closer look

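For 10 named genes without a group at 0, the effect of estradiol in females differed from that in males by the test of the difference itself (limma, adjusted over 9190 genes). The female effect minus the male effect, on the log2 scale, was 3.79 for fhl1b, 3.04 for lgals2a, 6.92 for cyp2k22, 5.58 for hsd17b3, 5.82 for me1 and 6.38 for slc25a48. It was -4.79 for esr1, -8.43 for nots, -5.28 for cyp2k6 and -4.27 for ppm1la. The starting levels differed too: the male DMSO libraries were above every female library in cyp2k22, hsd17b3, me1 and slc25a48, and below every female library in esr1, nots, cyp2k6 and ppm1la. At the female DMSO levels of cyp2k22, hsd17b3 and me1, a fall of the male size was not possible on this scale. For these genes the called difference cannot be told apart from that in starting level.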

How the results depend on the processing

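Over 9190 genes the number called in females was 251. It was between 185 and 274 with the female libraries alone, another pseudocount, another filter or none, quantile or median-of-ratios scaling, no intensity trend, the oocyte covariate or without genes at 0. It was 10 with the intestine covariate, 13 without both intestine-rich DMSO libraries and 5 without both oocyte-rich estradiol libraries. Leaving out 1 library gave 40 (female DMSO replicate 1) to 704 (male estradiol replicate 2). The genes called changed as well in the fits with 185 to 274 calls. Of the 251, between 151 (no filter) and 244 (without genes at 0) were called there again. That number was 153 with the female libraries alone and 174 under quantile normalization. Rises made up 17.9% of calls, but 33.7% with the female libraries alone, 33.0% and 28.4% under quantile and median-of-ratios scaling, and 40% with the intestine covariate. The median of all genes was -0.08, against 0.01 and 0.02 after the same scalings. Of the 71 calls of named genes, 63 ended with the intestine covariate. None reversed under any setting tried.

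The difference between the sexes was called for 24 genes, for 11 with the intestine covariate, 45 with the oocyte covariate, 7 without the intestine-rich and 6 without the oocyte-rich libraries, and 13 without genes at 0. Leaving out 1 library gave 10 to 78. The cause of these shifts was not tested. With a replicate block, 187 genes were called in females, 175 of them among the 251, and 20 differences were called. Whether equal library numbers share a batch was not settled. The estradiol libraries varied more than the DMSO libraries. With 3 libraries a group and no counts, depth gives no interval.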

Other observations

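Genes known from other vertebrates to respond to low oxygen were mostly lower in estradiol-treated females. A list of 54 such genes was put together after the values were seen, so it is a description with no test. Of 38 tested, 13 fell, none rose, 25 (65.8%) lay lower without overlap, and the median change was -1.40. Over all tested genes 2.24% fell and 18.8% lay lower. No median of this list was taken with the intestine or oocyte covariate. The oxygen-sensing prolyl hydroxylase egln3 measured 359, 547 and 672 FPKM in female DMSO and 28.6, 6.62 and 41.6 FPKM in female estradiol (-4.58, adjusted p = 0.0391 by limma). The von Hippel-Lindau protein gene vhl, which targets the oxygen-labile factor for degradation, measured 24.0, 22.6 and 29.7 FPKM in DMSO and 5.09, 2.02 and 5.31 FPKM in estradiol (-2.43, adjusted p = 0.0233). The related hydroxylase egln1b (-1.87), the collagen modifiers p4ha2 (-3.63) and plod1a (-3.26) and the coactivator-binding cited2 (-2.55) also fell, beside vegfab, p4ha1b, ldha, pgam1a, angptl4, bhlhe40 and loxl2a. Of the 13 calls, those of vegfab and p4ha1b held with every library left out. Each of the other 11 ended without female DMSO replicate 1 and without female DMSO replicate 2. For egln3 (adjusted p up to 0.117) and cited2 (up to 0.14) every female library mattered, and for vhl the highest value was 0.0862, without female DMSO replicate 1. One member, igfbp1a, lay higher without overlap at 411, 208 and 513 FPKM against 37.8 to 46.4 FPKM in DMSO, and did not pass (3.06, adjusted p = 0.254). In males 6 of the 38 fell, the median was -0.65, and no difference between the sexes was called.

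A list of immunoproteasome and interferon response genes was also put together after the values were seen. Of its 20 tested genes 5 fell, 10 (50%) lay lower without overlap and 2 higher, with a median of -1.32. Over all tested genes 2.24% fell, 18.8% lay lower and 9.98% higher. The inducible proteasome subunits psmb9a (-2.25, adjusted p = 0.00824 by limma) and psmb10 (-2.46, adjusted p = 0.0461) fell. So did the class I molecule mhc1uka (-2.45, adjusted p = 0.0253), the GTPase gbp1 (-2.39, adjusted p = 0.00446) and the tryptophan-degrading enzyme ido1 (-3.07, adjusted p = 0.0423). The gbp1 call held with every library left out, and the other 4 ended without female DMSO replicate 1, with adjusted p of 0.0531 for psmb9a, 0.188 for psmb10, 0.107 for mhc1uka and 0.144 for ido1. In males 4 of the 20 fell, with a median of -1.14. The transcription factors stat1a and irf9 changed by -0.24 and -0.07 in females.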
